A study of Homo sapiens with 8 samples.

Results

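The transcripts of 44 genes of DNA repair and the DNA damage response were followed in MDA-MB-231 cells starved of arginine. The genes were taken by name from lists of homologous recombination, Fanconi anemia, end joining, mismatch repair, base excision repair and checkpoint genes. The rule itself used no measured value, but the lists were drawn up with earlier results of these data known. All 44 were found among the 23393 gene symbols of the read-count table, and all 44 were among the 15262 genes that passed the filter on low counts. These cells are an established line of human breast cancer origin in which ASS1, an enzyme of arginine synthesis, is scarce. RNA-seq covered 8 libraries in 4 groups of 2. The parental control and ρ0 control libraries came from cells without the treatment. The parental starved and ρ0 starved libraries came from cells treated, according to the labels, with arginine deiminase (ADI, an enzyme that degrades arginine) at 0.3 µg/mL for 48 h in full growth medium, a high-glucose DMEM with serum and antibiotics. The study's methods describe arginine-starved medium instead. The ρ0 cells lacked mitochondrial DNA, which had been depleted with ethidium bromide, a DNA intercalator, and the libraries of both ρ0 groups came from 1 clone, number 27. The methods state that this line was kept with sodium pyruvate, uridine and ethidium bromide. The loss of mitochondrial DNA, the clone and these additions to the medium cannot be told apart in any comparison of ρ0 with parental cells.

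Homologous recombination repairs DNA double-strand breaks by copying an intact sister chromatid, so it works in cells that have replicated their DNA. The ends are first resected, and BRCA2 and its partners then prepare the single strands for the search for a matching sequence. The Fanconi anemia proteins remove crosslinks between the strands by marking the FANCD2-FANCI pair with ubiquitin. Non-homologous end joining seals breaks directly with the Ku proteins, DNA-PKcs and the ligase LIG4, and the kinases ATM and ATR signal damage to the cell cycle. Many genes of recombination and the Fanconi pathway are transcribed mostly in cells that enter S phase, under E2F factors.

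The libraries held between 25259503 and 31022155 counts. Values are given as CPM, counts scaled to library size, after TMM scaling, which corrects each library for its composition, and tests compare counts in edgeR's quasi-likelihood fit to all 8 libraries. A gene is said to have risen or fallen where its Benjamini-Hochberg adjusted p was under 0.05, and it was a DEG, by the study's criteria, where its log2 fold change was also above 1 or below -1. The ρ0 control libraries stood apart in their spread. The members' median difference between replicates was 0.33 on the log2 scale there, against 0.06 in parental control, 0.05 in parental starved and 0.03 in ρ0 starved libraries. The corresponding biological coefficient of variation was 25.02%, against 5.18%, 2.25% and 1.84%. The mesenchymal markers VIM, CD44, FN1, ZEB1, CAV1 and AXL were detected in all 8 libraries. On starvation of parental cells 4 of these 6 fell and 1, ZEB1, rose (median log2 fold change -1.06), with VIM at 1697 and 1786 CPM in control and 539.8 and 522 CPM in starved libraries. In ρ0 cells 2 fell and 1 rose (median -0.01). Their part in the members' changes was not tested. The hormone receptors ESR1 and PGR had at most 0.18 CPM. The lines differed in CDH1, with at most 0.07 CPM in parental and 4.31 to 15.9 CPM in ρ0 libraries, and in FOXA1, with 7.35 to 9.82 CPM in parental and at most 0.14 CPM in ρ0 libraries. The luminal breast markers KRT18 and GATA3 were detected in all 8 libraries, at 157 to 527 CPM and 4.38 to 18.6 CPM. Both were higher in ρ0 control than in parental control libraries (log2 difference 1.56, SE 0.12, and 1.87, SE 0.16). In bulk RNA, fewer cells that express a gene and less RNA of it per cell cannot be told apart. The table gives gene symbols without coordinates. Some members share sequence or position with other genes, and whether the counting used strand is not stated, so their values are uncertain to that extent. Among the members with the largest changes these include FANCD2, which overlaps FANCD2OS and has the pseudogenes FANCD2P1 and FANCD2P2. BRCA1 overlaps NBR2 and has the pseudogene BRCA1P1. RAD51AP1, UNG and RBBP8 also have pseudogenes by name. RAD54B overlaps FSBP, RAD54L overlaps LRRC41, FANCL overlaps VRK2, FANCI overlaps POLG, RAD51D overlaps RAD51L3-RFFL and XRCC1 overlaps PINLYP. H2AFX overlaps DPAGT1, CHEK1 overlaps ACRV1, BRCA2 overlaps ZAR1L and FANCA overlaps ZNF276.

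**Figure D1:**
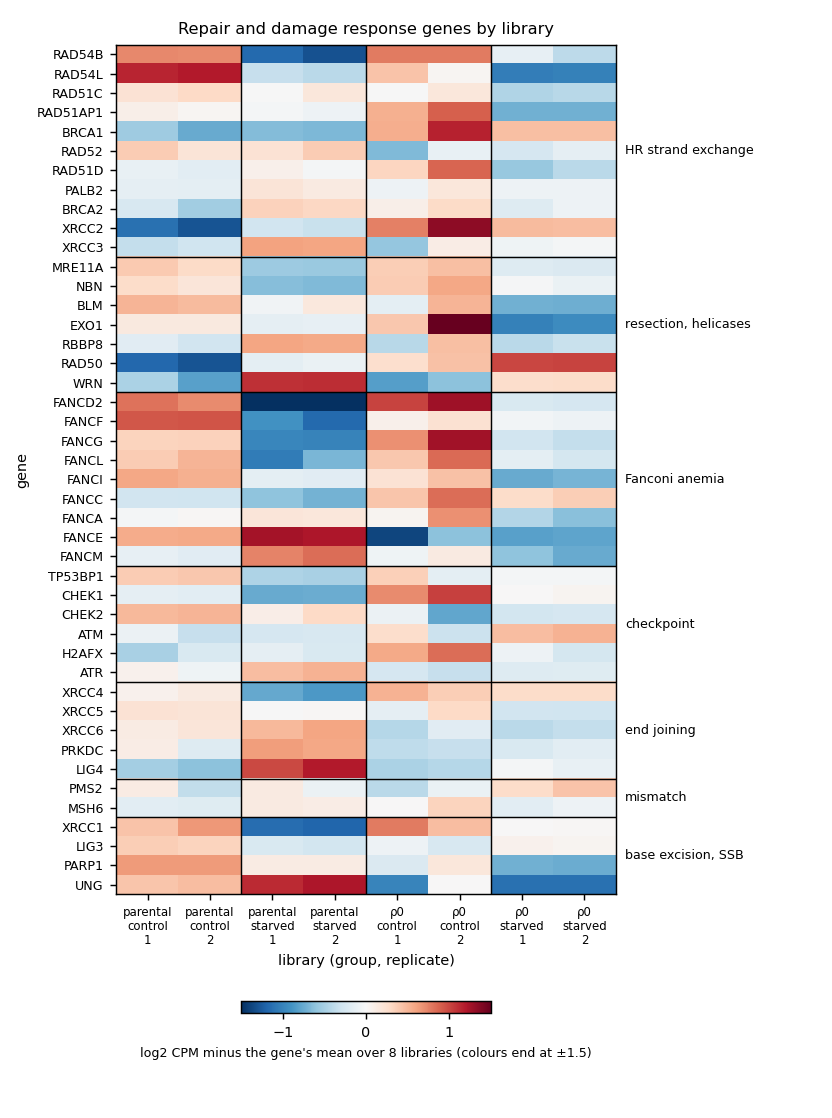
Level of each of the 44 genes in each of the 8 libraries, as log2 CPM minus the gene's mean over the libraries (red higher, blue lower, colours ending at ±1.5), with libraries in columns and genes grouped by pathway in rows. FANCD2 is darkest blue in both parental starved libraries, EXO1 is darkest red in ρ0 control library 2, and the ρ0 control libraries differ from each other more than the other pairs.

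The promoters shown were chosen as those of members with an E2F motif and a passing fall on starvation of either line. These were FANCD2 and XRCC2, and both hold the same form of the motif. FANCD2 had the largest fall of any member in parental cells, while XRCC2 rose in parental cells and fell in ρ0 cells. Since the choice required a fall, it says nothing on a link between motif and fall. The windows are those of RefSeq on GRCh38.p14, from 250 bases before to 50 bases after the start of transcription, written along the gene's strand. The capitals mark GCGGGAAA, the reverse complement of TTTCCCGC.

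FANCD2, chr3:10026187-10026486, plus strand: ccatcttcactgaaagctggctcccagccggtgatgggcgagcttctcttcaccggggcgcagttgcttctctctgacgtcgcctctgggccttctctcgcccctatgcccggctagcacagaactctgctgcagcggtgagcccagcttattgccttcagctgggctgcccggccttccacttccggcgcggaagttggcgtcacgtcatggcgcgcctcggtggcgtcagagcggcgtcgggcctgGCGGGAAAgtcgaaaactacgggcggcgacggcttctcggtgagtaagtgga

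XRCC2, chr7:152676092-152676391, minus strand: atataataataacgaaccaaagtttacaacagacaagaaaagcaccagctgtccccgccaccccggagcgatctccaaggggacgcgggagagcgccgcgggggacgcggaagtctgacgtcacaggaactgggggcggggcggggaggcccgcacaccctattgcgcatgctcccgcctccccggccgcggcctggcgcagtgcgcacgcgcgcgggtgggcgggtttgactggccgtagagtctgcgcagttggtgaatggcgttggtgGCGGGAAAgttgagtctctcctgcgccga

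In the FANCD2 window the motif begins 2 bases before the start of transcription, and in the XRCC2 window 21 bases after it. A promoter window was matched by symbol for 38 of the 44 members, in 58 windows, and FANCI, NBN, PRKDC, RAD54B, WRN and XRCC5 had none. TTTCCCGC, searched on both strands, was found in 4 of the 58 windows (6.90%, of FANCC, FANCD2, MSH6 and XRCC2) and in 1.63% of all 35116 windows. Of these 4 genes, FANCD2 fell, MSH6 and XRCC2 rose and FANCC did not pass on starvation of parental cells. The other E2F form searched, TTTGGCGC, was found in 1 member window, of XRCC6 (1.72% against 0.652%). TTTGAA, the core of the cell-cycle element CHR, was found in 5 member windows (8.62% against 15.2%), and CCAAT, the NF-Y box, in 29 (50% against 34.6%). The motifs were counted separately, so a window can hold several. A match describes these letters in this window and is no evidence of a factor bound there.

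Arginine starvation of parental cells moved the members in both directions. Of the 44, 15 fell and 15 rose, beside 35.5% of all tested genes that fell and 30.4% that rose, so that with 34.1% of the members each way their share was near the background. The DEGs were 7 lower and 3 higher, beside 22.1% and 12.7% of all genes, and the median log2 fold change was -0.07 over the members and -0.07 over all genes. The 7 down-regulated DEGs were FANCD2, FANCF, RAD54B, XRCC1, RAD54L, FANCG and FANCL, and the 3 up-regulated DEGs were WRN, LIG4 and RAD50. Each of the 15 falls was also called without any 1 of the 4 parental libraries. Of the 15 rises, 9 were. PALB2, RBBP8, FANCE, MSH6 and UNG lost the call whichever of the 4 libraries was left out, and XRCC6 lost it without control library 1 or starved library 2. Their highest adjusted p was 0.16 for PALB2 (without starved library 1), 0.11 for RBBP8 (control library 2), 0.096 for FANCE (control library 1), 0.18 for MSH6 (control library 2), 0.16 for UNG (control library 1) and 0.078 for XRCC6 (starved library 2). These tests took the spread of each gene over all 4 groups, so the ρ0 control libraries entered it although they are not compared here. Their biological coefficient of variation was 25.02%, against 5.18% in parental control and 2.25% in parental starved libraries. How far this weakened the calls that were lost was not tested. The genes of DNA replication and of mitosis are given here since many members vary with the cell cycle. Of 39 replication genes, 18 fell, 5 rose and 16 did not pass (median -0.36), and of 24 mitosis genes 22 fell and 2 did not pass (median -1.39). Their part in the members' changes was not tested.

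In ρ0 cells the same treatment gave more falls than rises. Of the 44 members, 21 fell and 4 rose, or 47.7% and 9.09%, beside 22.1% of all genes that fell and 19.2% that rose. The median log2 fold change was -0.44 over the members and -0.02 over all genes. The 8 down-regulated DEGs, beside 8.19% of all genes, were EXO1, RAD51AP1, FANCD2, FANCG, RAD54L, RAD51D, FANCI and RAD54B. The number of down-regulated DEGs changed with the library left out, most without a ρ0 control library. The 4 that rose were WRN, RAD50, PMS2 and LIG4, with log2 fold changes of 0.98, 0.66, 0.59 and 0.38, under the threshold of 1 that 4.22% of all genes passed. The count of falls moved with the library left out, as did the share of all genes that fell. It was 32 without ρ0 control library 1 and 24 without library 2, beside 31.8% and 31.6% of all genes, and 15 and 14 without ρ0 starved library 1 or 2, beside 10.4% and 9.94%. The count of rises was 8 without ρ0 control library 1, 9 without library 2 and 2 without either starved library, beside 30.95%, 30.8%, 10.1% and 10.3% of all genes that rose. The members' median was -0.59 without ρ0 control library 1 and -0.23 without library 2. The calls that held without each single library were 14 of the 21 falls and 2 of the 4 rises, those of WRN and RAD50. The falls of RAD51C, XRCC2, BLM, FANCA, FANCL, XRCC5 and XRCC1 were not called without 1 or both of the starved libraries, with highest adjusted p between 0.064 (BLM) and 0.20 (XRCC5), nor were the rises of LIG4 (0.13 without starved library 1) and PMS2 (0.17 without starved library 2). Of the replication genes 36 of 39 fell and 3 did not pass (median -1.45), and of the mitosis genes 23 of 24 fell and 1 did not pass (median -1.27). Their part in the members' changes was not tested.

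The difference between both responses was tested as an interaction, ρ0 minus parental, on the log2 scale. It was below 0 for 17 members and above 0 for 7, or 38.6% and 15.9%, beside 18.8% and 21.6% of all genes. Its median was -0.36 over the members and 0.02 over all genes. A difference below -1 was found for 11 of the 17 and one above 1 for 3 of the 7. Of all 15262 tested genes, 1011 passed with a difference below -1 and 2026 with one above 1. Leaving out ρ0 control library 1 gave 28 below and 12 above, beside 31.7% and 34.2% of all genes. Leaving out library 2 gave 21 and 14, beside 29.7% and 29.8%, and the members' medians were -0.43 and -0.15. Leaving out any 1 of the other 6 libraries gave 7 to 9 below and 6 above, beside 9.43% to 11.1% and 12.5% to 14.3% of all genes. In every one of these fits 7 of the 17 and 6 of the 7 were called. The 2 starvation comparisons share no libraries with each other, but both enter the interaction. Of the replication genes 27 of 39 had an interaction below 0 and 12 did not pass (median -0.93), and of the mitosis genes 2 were below 0 and 4 above 0 (median 0.15). Their part in the members' differences was not tested.

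**Figure D2:**
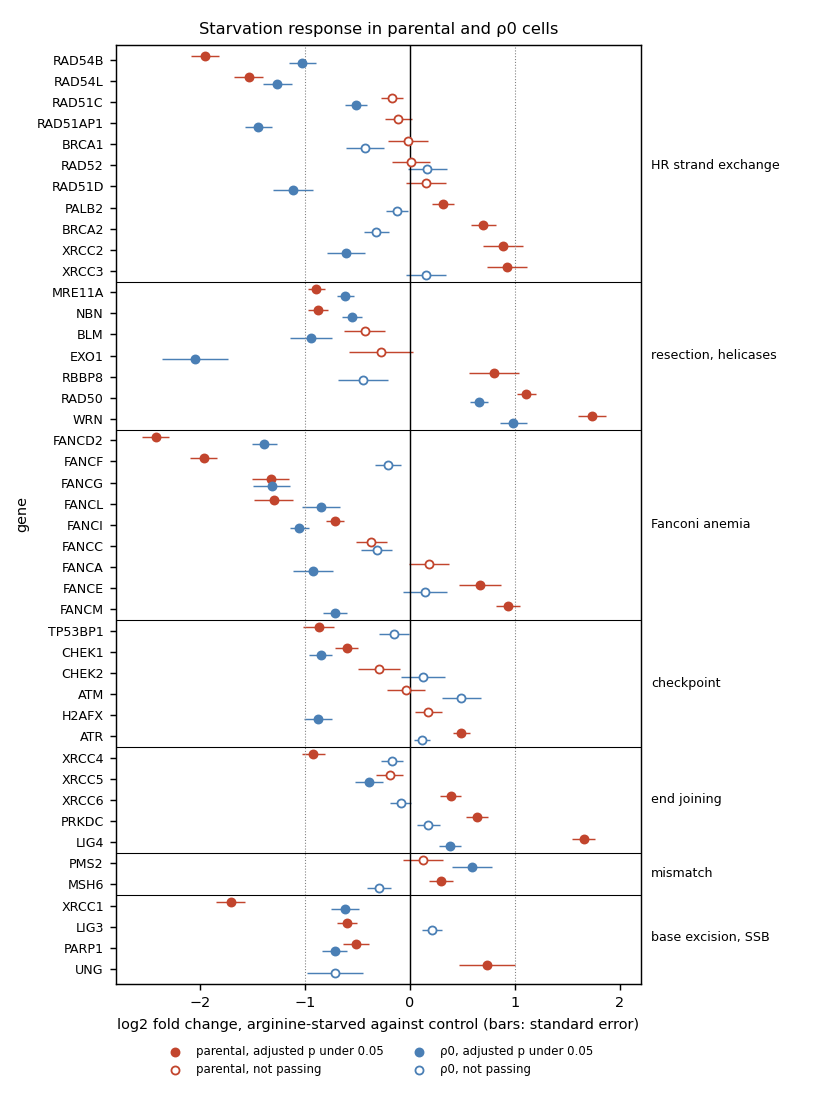
Log2 fold change of each member, arginine-starved against control, in parental cells (red) and ρ0 cells (blue), with bars for the standard error and filled points for an adjusted p under 0.05. FANCD2 and RAD54B lie left of -1 in both lines, WRN, RAD50 and LIG4 lie right of 0 in both, and FANCM and XRCC2 lie on opposite sides of 0.

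The Fanconi anemia genes held 5 falls and 2 rises among 9 in parental cells (median -0.72), or 55.6% and 22.2%, beside 35.5% and 30.4% of all genes. In ρ0 cells 6 fell and 3 did not pass (median -0.85), or 66.7% lower, beside 22.1% of all genes. FANCD2, the subunit whose ubiquitination starts crosslink repair, had 34.5 and 32.3 CPM in the parental control libraries and 5.86 and 6.56 in the starved ones, with no overlap. In the ρ0 libraries it had 39.9 and 47.5 CPM in control and 16.8 and 16.5 in starved cells. It was thus about 5.37-fold lower in starved parental cells (log2 fold change -2.43, SE 0.13, edgeR adjusted p = 1.0e-05) and 2.62-fold lower in starved ρ0 cells (-1.39, SE 0.12, edgeR adjusted p = 2.4e-04), and the responses differed by 1.03 (SE 0.17, edgeR adjusted p = 0.0038) on the log2 scale. FANCI, its partner in the pair, fell from 146 and 141 to 88.2 and 86.5 CPM in parental cells (-0.72, SE 0.09, edgeR adjusted p = 3.1e-04) and from 114 and 132 to 57.7 and 60.2 CPM in ρ0 cells (-1.06, SE 0.09, edgeR adjusted p = 2.4e-04). The interaction of FANCI was -0.34 and did not pass (edgeR adjusted p = 0.067).

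FANCF, FANCG and FANCL belong to the core complex that adds the ubiquitin, and FANCL is its ligase. FANCF had 26.7 and 26.9 CPM in parental control and 7.48 and 6.24 CPM in parental starved libraries, a log2 fold change of -1.97 (SE 0.13, edgeR adjusted p = 1.8e-05). In ρ0 libraries FANCF had 14.8 and 16.4 CPM in control and 13.7 and 13.3 CPM in starved cells, a change of -0.21 that did not pass (edgeR adjusted p = 0.21). The interaction of FANCF, 1.76 (SE 0.18, edgeR adjusted p = 6.2e-04), was the highest of all members, and the ρ0 control level lay between the 2 parental groups. FANCG fell in both lines, from 41.8 and 42.1 to 16.8 and 16.5 CPM in parental cells (-1.33, SE 0.18, edgeR adjusted p = 4.1e-04) and from 53.3 and 79.7 to 27.3 and 26 CPM in ρ0 cells (-1.32, SE 0.17, edgeR adjusted p = 0.0012). Its interaction was 0.01 with a standard error of 0.24. FANCL, with 20.5 and 22.3 CPM in parental control libraries, had 7.60 and 9.75 CPM after starvation (-1.30, SE 0.19, edgeR adjusted p = 5.8e-04), and went from 20.7 and 28.2 to 14.2 and 13 CPM in ρ0 cells (-0.85, SE 0.18, edgeR adjusted p = 0.0086, lost without either ρ0 starved library).

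Other members of the pathway moved the other way in parental cells. FANCM, the translocase that recruits the core complex to chromatin, rose from 16.8 and 16.2 to 30.6 and 32.5 CPM in parental cells (0.94, SE 0.11, edgeR adjusted p = 2.6e-04) and fell from 17.5 and 20.002 to 12 and 10.8 CPM in ρ0 cells (-0.72, SE 0.12, edgeR adjusted p = 0.0027). The responses of FANCM were of opposite sign with both passing, and the interaction was -1.65 (SE 0.16, edgeR adjusted p = 5.9e-04). FANCE, the core complex subunit that contacts FANCD2, had 88.5 and 89.4 CPM in parental control, 143 and 139.9 in parental starved, 23.2 and 39.1 in ρ0 control and 34.1 and 34.8 in ρ0 starved libraries. Its rise in parental cells was 0.67 (SE 0.20, edgeR adjusted p = 0.020), and its ρ0 change was 0.15 (edgeR adjusted p = 0.61). FANCA, the core subunit most often mutated in the disease, had 43.7 and 45.3 and then 50.7 and 50.4 CPM in parental cells (0.18, not passing) and fell from 46.2 and 71.8 to 33.1 and 29 CPM in ρ0 cells (-0.93, SE 0.19, edgeR adjusted p = 0.0074). The fall was -1.21 without ρ0 control library 1, -0.56 without library 2 and not called without ρ0 starved library 2. The interaction of FANCA was -1.11 (SE 0.27, edgeR adjusted p = 0.015), and it did not pass without either parental control library, either parental starved library or ρ0 starved library 2 (up to 0.064, without parental control library 1). FANCC, at 13.2 and 12.3 CPM in parental starved and 24.4 and 25.9 CPM in ρ0 starved libraries, passed in neither line (-0.37 and -0.32).

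**Figure D3:**
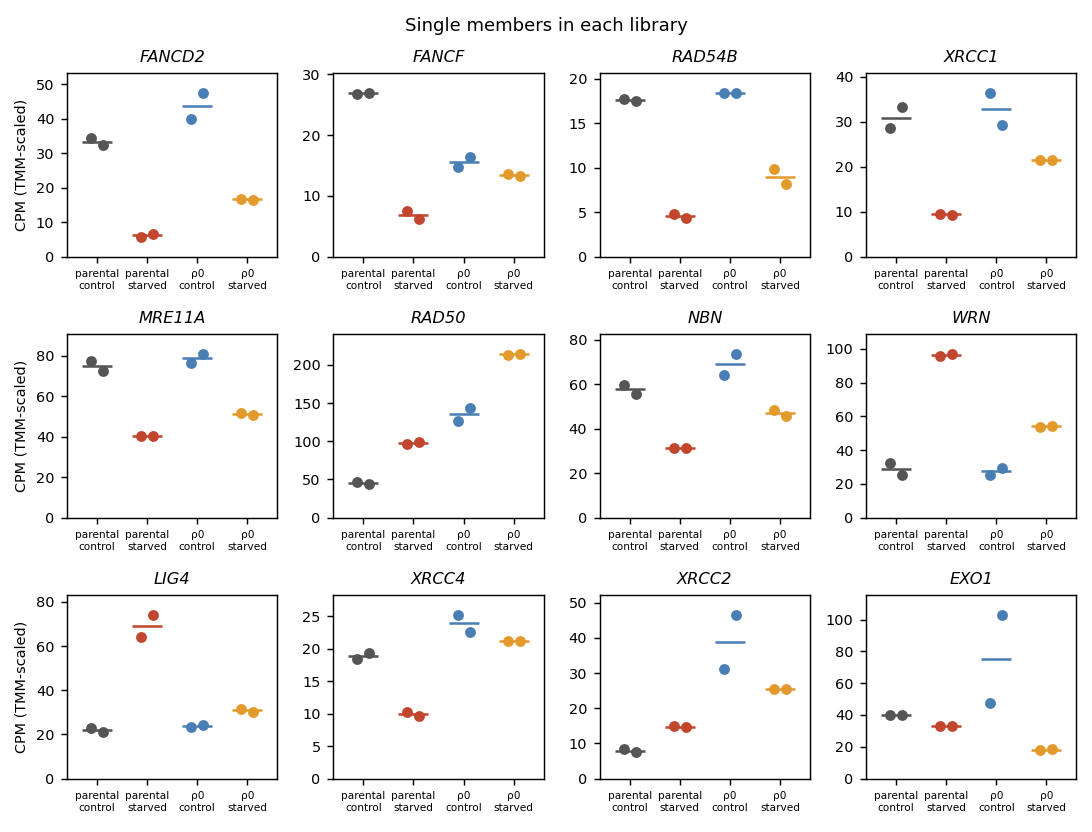
CPM of 12 members in each library (points) with the mean of each group of 2 (line), on axes that start at 0. FANCD2, FANCF, RAD54B and XRCC1 are lowest in parental starved libraries, RAD50 rises while MRE11A and NBN fall, LIG4 rises most in parental starved libraries, and the 2 ρ0 control points of EXO1 and XRCC2 lie far apart.

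The strand-exchange genes of homologous recombination, 11 members, split in parental cells into 2 falls and 4 rises (median 0.01), or 18.2% and 36.4%, beside 35.5% and 30.4% of all genes. In ρ0 cells 6 fell and 5 did not pass (median -0.52), or 54.5% lower, beside 22.1%. The 2 members of the RAD54 family, motor proteins of strand exchange, fell in both lines. RAD54B had 17.7 and 17.5 CPM in parental control and 4.75 and 4.32 CPM in parental starved libraries (-1.95, SE 0.14, edgeR adjusted p = 2.3e-05), and 18.4 and 18.4 and then 9.83 and 8.16 CPM in ρ0 libraries (-1.03, SE 0.13, edgeR adjusted p = 9.5e-04). The fall of RAD54B was larger in parental cells, with an interaction of 0.93 (SE 0.19, edgeR adjusted p = 0.0073). RAD54L had 57.1 and 58.8 CPM in parental control and 20.4 and 19.5 CPM in parental starved libraries (-1.54, SE 0.14, edgeR adjusted p = 5.9e-05). In ρ0 cells RAD54L fell from 34.6 and 26.3 to 12.5 and 12.8 CPM (-1.27, SE 0.14, edgeR adjusted p = 5.6e-04), and the interaction of 0.27 did not pass (edgeR adjusted p = 0.29).

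Other recombination genes fell in ρ0 cells and did not pass the test in parental cells. RAD51AP1, which stimulates strand pairing, had 44 and 42.2 CPM in parental control, 40.6 and 39.3 in parental starved, 59.8 and 77.3 in ρ0 control and 25.2 and 25.2 in ρ0 starved libraries. Its log2 fold change was -0.11 in parental cells (edgeR adjusted p = 0.46) and -1.45 (SE 0.13, edgeR adjusted p = 2.5e-04) in ρ0 cells, with an interaction of -1.34 (SE 0.18, edgeR adjusted p = 0.0016). RAD51D, which acts in strand exchange, had 8.63 and 8.34 CPM in parental control, 9.78 and 9.11 in parental starved, 11.7 and 17 in ρ0 control and 6.25 and 7.0 in ρ0 starved libraries. Its change was 0.15 in parental cells, which did not pass, and -1.11 (SE 0.19, edgeR adjusted p = 0.0034) in ρ0 cells (interaction -1.27, SE 0.27, edgeR adjusted p = 0.0092). RAD51C, which acts in the same step, fell in ρ0 cells (-0.52, SE 0.11, edgeR adjusted p = 0.0076, lost without either ρ0 starved library), while its parental change of -0.17 did not pass.

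XRCC2, a partner of RAD51D, had 8.48 and 7.47 CPM in parental control and 15 and 14.5 CPM in parental starved libraries, a log2 fold change of 0.89 (SE 0.19, edgeR adjusted p = 0.0046). It had 31.1 and 46.6 CPM in ρ0 control libraries, which lay far apart, and 25.4 and 25.4 CPM in ρ0 starved libraries (-0.61, SE 0.18, edgeR adjusted p = 0.031). Without ρ0 control library 1 this fall was -0.87 and without library 2 it was -0.28, and it was not called without either starved library. The interaction, -1.501 (SE 0.27, edgeR adjusted p = 0.0047), held without each single library. BRCA2, a central mediator of strand exchange, rose from 39.5 and 32.7 to 59.2 and 58 CPM in parental cells (0.70, SE 0.12, edgeR adjusted p = 0.0014) and went from 49.9 and 57 to 41 and 44.5 CPM in ρ0 cells (-0.32, edgeR adjusted p = 0.064). Its interaction was -1.02 (SE 0.17, edgeR adjusted p = 0.0036). XRCC3 rose in parental cells from 39.8 and 41.5 to 77.7 and 77 CPM (0.93, SE 0.19, edgeR adjusted p = 0.0037), and its interaction of -0.78 did not pass (edgeR adjusted p = 0.055). BRCA1, which promotes resection and recruits PALB2 and BRCA2, had 34 and 29.1 CPM in parental control and 31.5 and 30.9 in parental starved libraries (-0.02). In ρ0 libraries BRCA1 had 71.8 and 109.9 CPM in control and 67.5 and 67.5 CPM in starved cells (-0.43), and neither change passed. PALB2 rose in parental cells by 0.31 (SE 0.11, edgeR adjusted p = 0.033), and RAD52 had changes of 0.01 and 0.17 that did not pass.

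Of 23 other genes of homologous recombination and the Fanconi pathway, which are no members, 11 fell and 5 rose in parental cells, or 47.8% and 21.7%, beside 35.5% and 30.4% of all genes. In ρ0 cells 14 fell and 9 did not pass, or 60.9% lower, beside 22.1%. The largest changes in parental cells were those of EME1 (-1.87), BRIP1 (-1.78) and TOP3A (1.31). In ρ0 cells they were those of BRIP1 (-2.60), DNA2 (-1.96) and EME1 (-1.42). The interaction was below 0 in 9 and above 0 in 1 of these 23 genes, or 39.1% and 4.35%, beside 18.8% and 21.6% of all genes.

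The 3 subunits of the MRN complex, which senses and begins to process broken ends, did not move together. RAD50 had 47.1 and 43.5 CPM in parental control and 96.3 and 99.2 CPM in parental starved libraries (1.11, SE 0.09, edgeR adjusted p = 4.0e-05), and 127 and 144 and then 213 and 215 CPM in ρ0 libraries (0.66, SE 0.09, edgeR adjusted p = 0.0012). The 4 groups of libraries did not overlap in RAD50. MRE11A, the nuclease now named MRE11, fell from 77.5 and 72.2 to 40.4 and 40.2 CPM in parental cells (-0.89, SE 0.08, edgeR adjusted p = 5.9e-05) and from 76.6 and 81 to 51.9 and 50.9 CPM in ρ0 cells (-0.62, SE 0.08, edgeR adjusted p = 9.9e-04). NBN, which links the complex to ATM, fell from 59.8 and 55.7 to 31.6 and 31.3 CPM in parental cells (-0.88, SE 0.10, edgeR adjusted p = 1.6e-04) and from 64.4 and 73.7 to 48.5 and 45.8 CPM in ρ0 cells (-0.55, SE 0.10, edgeR adjusted p = 0.0036). RAD50 thus rose and its 2 partners fell in both lines, and these 6 calls held without each single library.

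With the MRN subunits, the genes of end resection and the helicases are 7 members. In parental cells 2 fell and 3 rose (median -0.28), or 28.6% and 42.9%, beside 35.5% and 30.4% of all genes. In ρ0 cells 4 fell and 2 rose (median -0.55), or 57.1% and 28.6%, beside 22.1% and 19.2%. The interaction was below 0 in 4 and above 0 in 0, beside 18.8% and 21.6% of all genes. Among the helicases and nucleases of end resection, WRN and EXO1 had the largest changes. WRN, a RecQ helicase and exonuclease, had 32.4 and 25.6 CPM in parental control, 96 and 97.2 in parental starved, 25.4 and 29.5 in ρ0 control and 53.9 and 54.6 in ρ0 starved libraries. Both starved groups lay above both control groups, with a rise of 1.74 (SE 0.13, edgeR adjusted p = 3.0e-05) in parental and 0.98 (SE 0.13, edgeR adjusted p = 0.0011) in ρ0 cells. The interaction of WRN, -0.75 (SE 0.18, edgeR adjusted p = 0.014), was not called without any 1 of the 4 starved libraries (up to 0.062, without parental starved library 2). EXO1, the exonuclease of long-range resection and of mismatch repair, had 39.8 and 39.9 CPM in parental control and 32.7 and 33.1 CPM in parental starved libraries (-0.28, edgeR adjusted p = 0.45). The ρ0 control libraries had 47.5 and 103 CPM of EXO1 and the ρ0 starved ones 17.7 and 18.7 CPM, a log2 fold change of -2.05 (SE 0.31, edgeR adjusted p = 0.0022). The interaction of EXO1 was -1.77 (SE 0.43, edgeR adjusted p = 0.016), at -2.22 without ρ0 control library 1 and -1.13 without library 2, and it did not pass without any 1 of the parental or ρ0 starved libraries (up to 0.064, without parental control library 2).

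BLM, the other RecQ helicase, went from 38.7 and 37.8 to 26.2 and 30.4 CPM in parental cells (-0.43, edgeR adjusted p = 0.090) and fell from 24.5 and 38.8 to 16.6 and 16.4 CPM in ρ0 cells (-0.95, SE 0.20, edgeR adjusted p = 0.0089). This fall was -1.24 without ρ0 control library 1, -0.56 without library 2 and not called without either starved library. RBBP8, which encodes the resection factor CtIP, rose from 64.3 and 59.2 to 108 and 107 CPM in parental cells (0.80, SE 0.24, edgeR adjusted p = 0.019). In ρ0 cells RBBP8 had 54 and 98.8 CPM in control and 54.5 and 57.5 CPM in starved libraries, which overlapped, and its change of -0.45 did not pass. Its interaction was -1.25 (SE 0.34, edgeR adjusted p = 0.023), at -1.62 without ρ0 control library 1 and -0.78 without library 2, and did not pass without any 1 of the parental or ρ0 starved libraries (up to 0.091, without parental control library 2).

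End joining members held 1 fall and 3 rises of 5 in parental cells (median 0.39), beside 35.5% and 30.4% of all genes, and 1 fall and 1 rise in ρ0 cells (median -0.09), beside 22.1% and 19.2%. LIG4, the ligase of the pathway, rose from 22.8 and 21.1 to 64.3 and 74.2 CPM in parental cells (1.66, SE 0.11, edgeR adjusted p = 1.7e-05). In ρ0 libraries LIG4 had 23.3 and 24.2 CPM in control and 31.7 and 29.99 CPM in starved cells (0.38, SE 0.11, edgeR adjusted p = 0.024), and the interaction was -1.28 (SE 0.15, edgeR adjusted p = 0.0010). XRCC4, the partner that stabilizes LIG4, fell in parental cells from 18.4 and 19.3 to 10.3 and 9.64 CPM (-0.92, SE 0.11, edgeR adjusted p = 2.2e-04) and had 25.3 and 22.6 and then 21.2 and 21.2 CPM in ρ0 libraries (-0.18, edgeR adjusted p = 0.22). The interaction of XRCC4 was 0.75 (SE 0.15, edgeR adjusted p = 0.0076), so ligase and partner differed between the lines in opposite directions. PRKDC, which encodes DNA-PKcs, had 791 and 641 CPM in parental control and 1131 and 1099.8 CPM in parental starved libraries (0.64, SE 0.11, edgeR adjusted p = 0.0014), and its ρ0 change was 0.18 (edgeR adjusted p = 0.23). Of the Ku genes, XRCC6 rose in parental cells (0.39, SE 0.10, edgeR adjusted p = 0.010), and XRCC5 fell in ρ0 cells (-0.39, SE 0.13, edgeR adjusted p = 0.049). The fall of XRCC5 was -0.59 without ρ0 control library 1, -0.14 without library 2 and not called without either starved library. Of 10 other end joining genes, 3 fell and 3 rose in parental cells, near these shares of all genes, and 3 fell and 7 did not pass in ρ0 cells, with the largest change for POLL (-1.60) in parental cells.

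The 4 members of base excision and single-strand break repair held 3 falls and 1 rise in parental cells (median -0.56), beside 35.5% and 30.4% of all genes, while in ρ0 cells 2 fell and 2 did not pass (median -0.67), beside 22.1% that fell. XRCC1, the scaffold of the pathway, fell from 28.6 and 33.3 to 9.62 and 9.29 CPM in parental cells (-1.71, SE 0.14, edgeR adjusted p = 4.3e-05). In ρ0 cells XRCC1 fell from 36.4 and 29.4 to 21.4 and 21.5 CPM (-0.62, SE 0.13, edgeR adjusted p = 0.0090, lost without either starved library), and the interaction was 1.09 (SE 0.19, edgeR adjusted p = 0.0046). LIG3, the ligase held by XRCC1, fell in parental cells from 47 and 45.6 to 31 and 29.99 CPM (-0.60, SE 0.09, edgeR adjusted p = 8.4e-04) and had 34.4 and 30.7 and then 38 and 37.2 CPM in ρ0 libraries (0.21, not passing), with an interaction of 0.81 (SE 0.13, edgeR adjusted p = 0.0033). PARP1, which senses the nicks, fell in both lines, with log2 fold changes of -0.51 (SE 0.12, edgeR adjusted p = 0.0065) in parental and -0.72 (SE 0.12, edgeR adjusted p = 0.0032) in ρ0 cells. UNG, the uracil glycosylase, had 174 and 180.3 CPM in parental control, 285 and 303 in parental starved, 65.8 and 132 in ρ0 control and 59.99 and 60.1 in ρ0 starved libraries. Its change was 0.73 (SE 0.27, edgeR adjusted p = 0.042) in parental cells and -0.72 in ρ0 cells (edgeR adjusted p = 0.069). The interaction of UNG was -1.45 (SE 0.38, edgeR adjusted p = 0.021), at -1.86 without ρ0 control library 1 and -0.89 without library 2, and did not pass without any 1 of the parental or ρ0 starved libraries (up to 0.080, without parental control library 1). Of 18 other base excision genes, 10 fell and 1 rose in parental cells, or 55.6% and 5.56%, and 9 fell and 1 rose in ρ0 cells, or 50% and 5.56%. NEIL3 (-2.77 and -1.88), a glycosylase, and LIG1 (-2.71 and -1.79), the replicative ligase, had the largest falls in both lines. The mismatch repair members are 2. MSH6, the mismatch sensor, rose in parental cells by 0.29 (SE 0.11, edgeR adjusted p = 0.049), with an interaction of -0.59 (SE 0.16, edgeR adjusted p = 0.022), and PMS2, the endonuclease subunit, rose in ρ0 cells by 0.59 (SE 0.19, edgeR adjusted p = 0.041). Neither the parental rise nor the interaction of MSH6 held without each single library (up to 0.18 and 0.084, both without parental control library 2), and PMS2 shares sequence with many pseudogenes.

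Of the 6 checkpoint members, 2 fell and 1 rose in parental cells (median -0.17), beside 35.5% and 30.4% of all genes, while in ρ0 cells 2 fell and 4 did not pass (median -0.02), beside 22.1% that fell. CHEK1, the effector kinase of ATR, fell from 54.8 and 53.9 to 35.7 and 35.9 CPM in parental cells (-0.60, SE 0.11, edgeR adjusted p = 0.0021) and from 98.2 and 123 to 60.5 and 62 CPM in ρ0 cells (-0.85, SE 0.11, edgeR adjusted p = 0.0011). H2AFX, the histone variant phosphorylated at breaks, had 84 and 100.3 CPM in parental control and 107 and 100.5 CPM in parental starved libraries (0.17, not passing). In ρ0 cells it fell from 174 and 210.5 to 112 and 98 CPM (-0.88, SE 0.13, edgeR adjusted p = 0.0019), with an interaction of -1.05 (SE 0.18, edgeR adjusted p = 0.0046). TP53BP1, which shields ends from resection, fell in parental cells from 93.5 and 95.3 to 52 and 51.3 CPM (-0.87, SE 0.15, edgeR adjusted p = 0.0013), and in ρ0 cells the groups overlapped (91.7 and 65.1 and 70.5 and 70.3 CPM). Its interaction, 0.72 (SE 0.21, edgeR adjusted p = 0.029), was 0.99 without ρ0 control library 1 and 0.46 without library 2, and did not pass without any 1 of the parental or ρ0 starved libraries. ATR rose in parental cells by 0.49 (SE 0.08, edgeR adjusted p = 0.0011). ATM, at 154 and 102 CPM in ρ0 control and 176 and 183 CPM in ρ0 starved libraries, and CHEK2, the effector kinase of ATM, passed in neither line. Of 20 other checkpoint genes, 4 fell and 8 rose in parental cells, or 20% and 40%, and 5 fell and 2 rose in ρ0 cells, or 25% and 10%, where 19.2% of all genes rose. The phosphatases CDC25C (-2.45) and CDC25A (1.99) were among the largest parental changes, and CDC25A and the ATR adaptor CLSPN had the lowest interactions (-2.16 each).

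**Figure D4:**
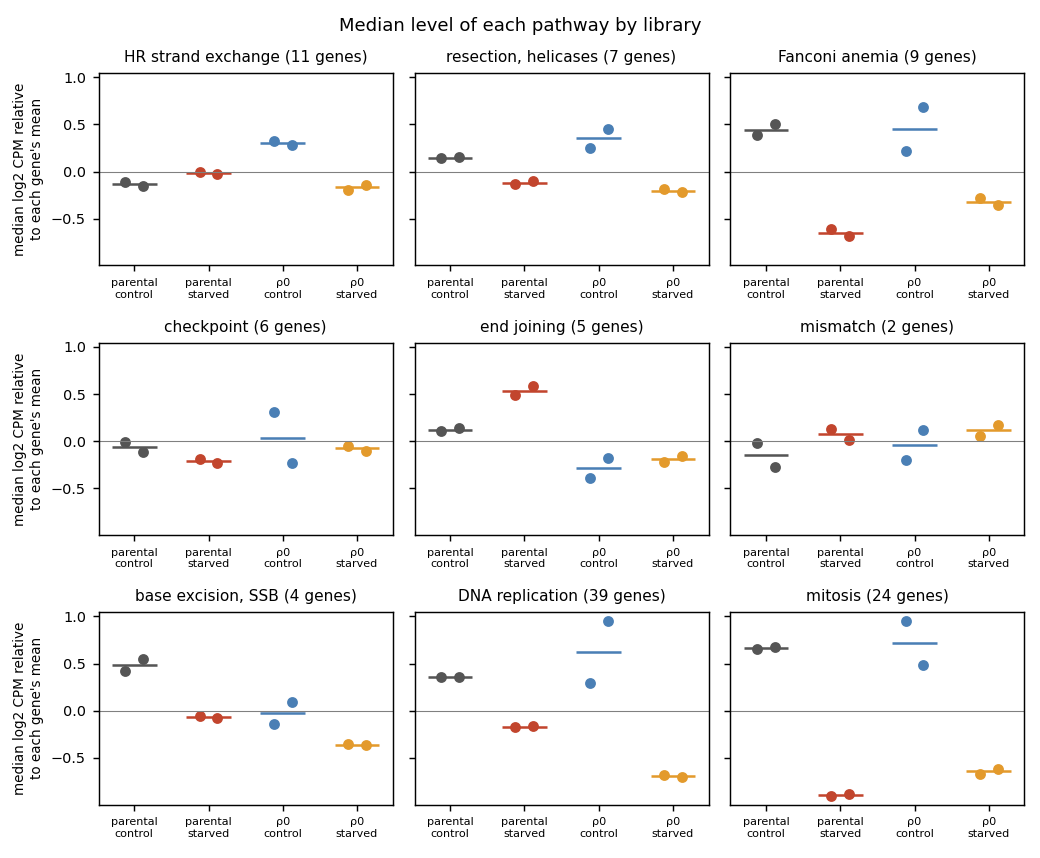
Median over the genes of each pathway of log2 CPM relative to each gene's mean over the 8 libraries, for the 7 member pathways and for replication and mitosis genes (points are libraries, lines are group means). The Fanconi anemia median lies between 0.22 and 0.68 in the 4 control libraries and between -0.69 and -0.28 in the 4 starved ones, the end joining median is highest in parental starved libraries at 0.49 and 0.58, and the ρ0 control libraries differ most in replication genes, at 0.30 and 0.95.

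Without starvation, the shares of members that differed between the lines were near or below those of all genes. Of the 44 members, 11 were lower and 15 higher in ρ0 control than in parental control cells, or 25% and 34.1%, beside 31.8% and 30.5% of all genes, with a median of 0.12 over the members and -0.01 over all genes. The DEGs were 1 lower and 5 higher, beside 17.3% and 13.6% of all genes. XRCC2 differed most, with 31.1 and 46.6 CPM in ρ0 control against 8.48 and 7.47 CPM in parental control libraries (log2 difference 2.28, SE 0.19, edgeR adjusted p = 5.0e-05, or 4.87-fold). RAD50 (1.58, SE 0.09, edgeR adjusted p = 8.9e-06), BRCA1 (1.52, SE 0.19, edgeR adjusted p = 3.1e-04), H2AFX (1.06, SE 0.13, edgeR adjusted p = 3.1e-04) and CHEK1 (1.02, SE 0.11, edgeR adjusted p = 1.5e-04) were also higher in ρ0 cells, with no overlap between the libraries. FANCE was the lower DEG, with 23.2 and 39.1 CPM against 88.5 and 89.4 CPM (-1.51, SE 0.21, edgeR adjusted p = 5.3e-04). Among smaller differences, RAD54L (-0.93), CHEK2 (-0.89, and -1.28 or -0.53 without ρ0 control library 1 or 2), FANCF (-0.78) and PARP1 (-0.65) were lower, and FANCC (0.93) and RAD51AP1 (0.67) higher. Leaving out parental control library 1 gave 7 lower and 8 higher members, and leaving out parental control library 2 gave 10 and 8, where 25.01% and 25.5% of all genes were lower and 22.9% and 22.8% higher. Leaving out ρ0 control library 1 gave 13 and 21, and library 2 gave 16 and 17, where 39.5% and 37.3% of all genes were lower and 37.7% and 39.02% higher. Each of the 6 DEGs kept its call without each single library, but not all of the 5 higher ones kept a log2 difference above 1. This was so without parental control library 1 and without ρ0 control library 2. Replication genes were lower in 2 and higher in 16 of 39 (median 0.32), and their median relative log2 level was 0.30 in ρ0 control library 1 and 0.95 in library 2, against 0.36 in both parental control libraries. Their part in these differences was not tested.

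After starvation, 21 members were lower and 17 higher in ρ0 than in parental cells, or 47.7% and 38.6%, beside 33.5% and 32.9% of all genes, with a median of -0.38 over the members and -0.01 over all genes. The DEGs were 4 lower and 5 higher, beside 16.8% and 18.7% of all genes. This comparison uses the ρ0 control libraries only in the shared estimate of the spread. The lower DEGs were UNG (-2.29, SE 0.28, edgeR adjusted p = 2.5e-04), FANCE (-2.04, SE 0.21, edgeR adjusted p = 1.1e-04), FANCM (-1.47, SE 0.12, edgeR adjusted p = 3.0e-05) and LIG4 (-1.17, SE 0.10, edgeR adjusted p = 5.4e-05). UNG had 59.99 and 60.1 CPM in ρ0 starved against 285 and 303 CPM in parental starved libraries, or was 4.89-fold lower. The higher DEGs were FANCD2 (1.42, SE 0.13, edgeR adjusted p = 5.5e-05), XRCC1 (1.18, SE 0.14, edgeR adjusted p = 2.1e-04), RAD50 (1.13, SE 0.09, edgeR adjusted p = 2.8e-05), BRCA1 (1.11, SE 0.19, edgeR adjusted p = 0.0013) and XRCC4 (1.09, SE 0.11, edgeR adjusted p = 9.1e-05). FANCD2 had 16.8 and 16.5 CPM in ρ0 starved against 5.86 and 6.56 CPM in parental starved libraries. Of the strand-exchange genes 7 of 11 were lower and 3 higher, and of the Fanconi genes 4 of 9 lower and 5 higher. Each of the 9 DEGs passed without each single library, while the counts of members were 14 to 15 lower and 13 to 15 higher with 1 library left out, beside 24.97% to 26.96% and 25.9% to 27.3% of all genes. Without parental starved library 2 or ρ0 starved library 1 the count of lower members was 14. Replication genes were lower in 20 and higher in 3 of 39 (median -0.59), and mitosis genes lower in 7 and higher in 7 of 24 (median 0.23). Their part in these differences was not tested. The 5 comparisons share libraries, so their counts are not independent of each other. RAD50 and BRCA1 were higher in ρ0 than in parental cells, and FANCE lower, by the DEG criteria both with and without starvation.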

How the data were processed

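RNA was extracted with Trizol and sequenced from Illumina libraries of 8 samples. The authors deposited raw counts of reads for each gene symbol, not normalized. The submitters' processing notes name Bowtie, Partek and hg19, and the annotation, versions and strand setting are not given in the sources used here. Low counts were filtered with edgeR's (4.0.16, in R 4.3.3) filterByExpr over the 4 groups, which kept 15262 of 23393 genes. TMM scaling was applied, and the quasi-likelihood functions glmQLFit and glmQLFTest took the 8 libraries together, each group having its own mean (4 residual degrees of freedom, prior 3.40, biological coefficient of variation 12.4%). P-values were adjusted over all tested genes by the Benjamini-Hochberg method. DEGs were genes with an adjusted p under 0.05 whose log2 fold change exceeded 1 in either direction. Standard errors (SE) are the log2 difference divided by the square root of F. The script was tested on simulated data in which all libraries had the same spread and few genes changed. That test does not cover groups of unequal spread or changes of most genes.

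The members and the gene lists were chosen with earlier results of these data known. All 44 members could be named, and values in every library with their tests were given for DEGs and for members whose responses differed by more than 1. For the other lists, at most 3 of the largest passing changes among genes with a mean of at least 5 CPM were named. The labels do not say whether replicates were separate cultures, so p-values measure only the spread between these libraries, which may be technical. That spread was shared by all 4 groups, so tests with ρ0 control libraries may be too lenient and others too strict. With the compared groups only, 1665 genes fell and 1462 rose in ρ0 cells, against 3371 and 2937 with all 8 libraries. In parental cells 6167 fell and 5875 rose, against 5423 and 4637. These fits also had fewer libraries and tested fewer genes. Depth was 25259503 to 31022155 counts per library. Alternatives were other scalings, other filters, DESeq2 (1.42.0) and limma-voom (limma 3.58.1), the replicate number as a block, the compared groups only, and leaving out each library. Removal of GC content and length trends (GENCODE transcripts, for 98.0% of tested genes and 100% of members) was chosen after seeing the data. Promoter windows are those of RefSeq on GRCh38.p14, and were matched by symbol.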

Additional observations from a re-analysis of the deposited data

Results flagged for a closer look

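The starvation response differed between ρ0 and parental cells for 24 of the 44 members, by edgeR's test of the difference itself (ρ0 minus parental, adjusted p under 0.05). The difference was below 0 for 38.6% of the members and above 0 for 15.9%, beside 18.8% and 21.6% of all genes. In 11 of the 24 the responses had opposite signs, and in 2 of these, FANCM and XRCC2, both responses passed. Opposite signs were not counted over all genes, so these counts have no background beside them. The difference was below 0 for EXO1 (-1.77), FANCM (-1.65), XRCC2 (-1.501), UNG (-1.45), RAD51AP1 (-1.34), LIG4 (-1.28), RAD51D (-1.27), RBBP8 (-1.25), FANCA (-1.11), H2AFX (-1.05) and BRCA2 (-1.02), each on the log2 scale. Smaller differences below 0 were those of WRN (-0.75), MSH6 (-0.59), XRCC6 (-0.48), PRKDC (-0.46), RAD50 (-0.45) and ATR (-0.38). The difference was above 0 for FANCF (1.76), XRCC1 (1.09), FANCD2 (1.03), RAD54B (0.93), LIG3 (0.81), XRCC4 (0.75) and TP53BP1 (0.72).

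The members with a difference above 0 fell in parental cells and had a less negative change in ρ0 cells, or, for LIG3, one of 0.21 that did not pass. WRN, RAD50, LIG4 and PRKDC had positive changes in both lines that were smaller in ρ0 cells, although the ρ0 change of PRKDC did not pass. The calls of EXO1, UNG, RBBP8, FANCA, WRN, MSH6, XRCC6, PRKDC, RAD50, ATR and TP53BP1 were lost with 1 library left out. Their highest adjusted p lay between 0.062 for WRN, without parental starved library 2, and 0.15 for PRKDC, without parental starved library 1. For FANCM, XRCC2, RAD51AP1, LIG4, RAD51D, H2AFX, BRCA2 and the positive differences other than that of TP53BP1, the call held without each of the 8 libraries in turn. Groups of 2 libraries are too small for a test of single outlying libraries.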

How the results depend on the processing

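Over the 5 comparisons, 143 member calls were made, and all but 1 kept their sign in each alternative run. The exception was PRKDC in ρ0 against parental control cells, which turned from -0.33 to 0.13 with GC content and length trends removed. In 92 of the 143 the adjusted p also stayed under 0.05 throughout. Of the calls whose log2 difference exceeded 1 in either direction, those of EXO1, RBBP8, FANCA and UNG in the interaction were lost with 1 library left out, and the others held in each alternative run. The remaining lost calls were of smaller differences. Scaling moved the median of all genes on parental starvation from -0.07 to -0.19 (upper quartile) and -0.23 (total counts), and the members' median from -0.07 to -0.19 and -0.23, and it was -0.25 with GC content and length trends removed. The interaction median was -0.27 with upper quartile and -0.28 with total count scaling, the median of ρ0 against parental control cells 0.027 with total count scaling and that of ρ0 against parental starved cells -0.19 with GC content and length trends removed. In ρ0 cells 2 members rose with total count scaling and 2 with the compared groups only, which also gave 6 members lower in ρ0 than in parental control cells. With 1 library left out, the remaining library of a group being assumed to vary like the other groups, parental rises numbered 9 to 10, ρ0 falls 14 to 32 and ρ0 rises 2 to 9, with a ρ0 median of -0.59 to -0.23. The interaction was then below 0 in 7 to 28 and above 0 in 6 to 14 members (median -0.43 to -0.15), and between the control groups 7 to 16 members were lower and 8 to 21 higher. With the replicate number as a block, 15 members fell and 14 rose in parental cells, 20 fell and 4 rose in ρ0 cells, and the interaction was below 0 in 15 and above 0 in 7, so that the replicate block changed no count by over 1.5 times. Deviations of same-numbered libraries correlated between -0.042 and 0.023, so no deviation shared over all genes was seen. Such correlations cannot exclude a pairing with a small effect or one on few genes, and the labels give only the replicate number. With 2 libraries a group, small changes of members could not be told from the spread.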

Other observations

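Of 21 genes that respond to p53 and DNA damage, 12 rose, 2 fell and 7 did not pass on starvation of parental cells (median log2 fold change 0.85), and 12 rose, 1 fell and 8 did not pass in ρ0 cells (median 0.47). GADD45A, a damage-inducible growth arrest gene, had log2 fold changes of 3.43 in parental and 2.19 in ρ0 cells, and FDXR, a mitochondrial reductase and p53 target, of -3.08 and -1.70. The interaction was below 0 in 10 and above 0 in 3 of the 21, with values of -1.60 for AEN, -1.53 for CDKN1A and -1.51 for GADD45B. The rises, 57.1% in either line, stand beside 30.4% of all genes that rose in parental and 19.2% in ρ0 cells, and the interaction counts beside 18.8% of all genes below 0 and 21.6% above.

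The nucleotide excision repair genes, 23 in all, had shares near those of all genes in parental cells, with 8 lower and 7 higher (median 0.04), or 34.8% and 30.4%, beside 35.5% and 30.4%. In ρ0 cells 7 were lower and 5 higher (median -0.07), or 30.4% and 21.7%, beside 22.1% and 19.2%. DDB2, a damage sensor of this pathway, fell in both lines (-1.20 and -1.16). Of 11 translesion synthesis genes, 3 fell and 5 rose in parental cells, or 27.3% and 45.5%, and 3 fell and 4 rose in ρ0 cells, or 27.3% and 36.4%, beside the shares of all genes just given for either line. The bypass polymerase gene POLK rose in both (1.27 and 0.68), and HLTF, which remodels stalled forks, fell in both (-1.56 and -0.88).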
